A study of Rattus norvegicus with 8 samples.

Results

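The levels of 8 cytokine genes were followed through the small intestine, spleen and liver of rats given lavender oil (LO), an essential oil rich in linalool and linalyl acetate: Tnf (NM_012675), Il1b (NM_031512), Il2 (NM_053836), Il4 (NM_201270), Il6 (NM_012589), Il10 (NM_012854), Ifng (NM_138880) and Tgfb1 (NM_021578). They were found through the accession that the array design gives each feature, and every feature that was not a control and carried 1 of the 8 accessions on all 8 arrays was taken. This gave 10 probes on 64 features, of 41012 probes on 43379 features. Tnf, Il6, Il10, Ifng and Tgfb1 each had 1 probe printed 10 times, Il1b had a probe printed 10 times (probe 1) and a single copy of another (probe 2), Il4 had 2 probes of 1 copy each, and Il2 had 1 copy of 1 probe.

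The rats were male and 7 weeks old, with 6 animals in each group. The labels name the strain as Wistar in 1 field and as F334 in another, so they do not settle it. The paper's methods name Fischer (F334) rats. Controls received the diluent, 10% ethanol, and LO rats received LO at 5 mg/kg in 10% ethanol, both put into the stomach once daily over 13 days, and tissues were dissected at 14 days. RNA of the animals of a group was pooled, so a pooled sample carries no spread between animals. There were 4 pairs of pooled samples (small intestine, spleen, liver pool 1 and liver pool 2), and each pair was hybridised on 2 two-colour arrays: on replicate 1 LO carried Cy5 and control Cy3, and on replicate 2 the dyes were swapped. What separates the liver pools is not given in the sources used here, beyond 2 blocks of tissue having been cut from each liver.

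On single arrays 44.29% to 64.73% of features exceeded background clearly in both dyes, and 0 were saturated. Turned to LO over control, the 2 arrays of a pair correlated negatively across probes (Pearson r -0.721 and -0.72 in the liver pools, -0.631 in small intestine and -0.596 in spleen), so the sign of a ratio on 1 array often followed the dye, and only the mean of a pair was read as an LO value. The tissue labels were set against marker genes. The summed linear level of 5 hepatocyte genes was 730369 to 756151 in liver samples against 7117 to 7435 in spleen and 133576 to 138344 in small intestine, where 4 of the 5 were above background in every channel and Alb in none. The enterocyte genes Fabp2 and Alpi summed to 234984 to 245678 in small intestine, were at 438 to 502 in liver, and were above background in no spleen channel.

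Cytokines are secreted proteins through which immune, epithelial and stromal cells signal. Tnf, Il1b and Il6 are the classical inflammatory cytokines, which macrophages and other cells release and which act through NF-kappaB, MAP kinase and STAT pathways. Il2, Il4 and Ifng are made mainly by lymphocytes, while Il10 and Tgfb1 restrain immune responses, and Tgfb1 also drives matrix production. In the gut these genes act where food and microbes meet the immune system, the spleen is a lymphoid organ, and the liver holds resident macrophages.

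The promoters are shown because several of these genes are textbook targets of NF-kappaB. RefSeq gave promoter entries for 7 of the 8 genes on assembly GRCr8, and Il10 had none. The array's own design refers to another build, so no array coordinates were used. The 250 bases before the transcription start were searched on both strands for 5 motifs, which are held by the following shares of 33469 rat promoters: NF-kappaB (GGGNNNNNCC) 42.3%, CRE (TGACGTCA) 1.59%, AP-1 (TGANTCA) 6.34%, TATA box (TATAAA) 12.9% and GC box (GGGCGG) 30.5%. Capitals mark the matches in 4 of the promoters, Tnf at chr20:3626435-3626684 (plus strand), Il1b at chr3:137036582-137036831 (minus strand), Il6 at chr4:5894576-5894825 (minus strand) and Tgfb1 at chr1:90324062-90324311 (plus strand).
Tnf: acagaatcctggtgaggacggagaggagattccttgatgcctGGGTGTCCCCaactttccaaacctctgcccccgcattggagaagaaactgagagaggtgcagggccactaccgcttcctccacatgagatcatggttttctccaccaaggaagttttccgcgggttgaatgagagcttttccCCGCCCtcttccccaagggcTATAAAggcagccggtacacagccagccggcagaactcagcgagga
Il1b: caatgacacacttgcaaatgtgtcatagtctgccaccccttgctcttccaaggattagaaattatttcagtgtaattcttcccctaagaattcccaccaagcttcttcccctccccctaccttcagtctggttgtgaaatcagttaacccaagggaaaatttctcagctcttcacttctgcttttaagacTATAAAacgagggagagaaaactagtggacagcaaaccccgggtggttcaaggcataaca
Il6: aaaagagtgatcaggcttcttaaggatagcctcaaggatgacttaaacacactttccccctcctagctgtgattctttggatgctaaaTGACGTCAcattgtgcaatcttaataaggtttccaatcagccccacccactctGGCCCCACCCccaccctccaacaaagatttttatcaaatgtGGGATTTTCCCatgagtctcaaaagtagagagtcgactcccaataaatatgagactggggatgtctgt
Tgfb1: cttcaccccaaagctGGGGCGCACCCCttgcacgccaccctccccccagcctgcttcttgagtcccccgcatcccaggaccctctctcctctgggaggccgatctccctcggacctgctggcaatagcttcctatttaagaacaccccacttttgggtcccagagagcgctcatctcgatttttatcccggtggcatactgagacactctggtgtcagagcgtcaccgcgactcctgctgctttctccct
In Tnf the capitals are, from left to right, an NF-kappaB match from 208 to 199 bases before the start, matched on both strands, a GC box from 66 to 61 and a TATA box from 46 to 41. Il1b held a TATA box from 60 to 55 bases before the start. Il6 held a CRE match from 162 to 155, an NF-kappaB match from 109 to 100 on the strand opposite to the gene, and overlapping NF-kappaB matches on both strands from 68 to 58. In Tgfb1 the run in capitals, from 235 to 224, is made of overlapping NF-kappaB matches. Of the promoters not printed, Il2 held a TATA box from 65 to 60, Ifng a TATA box from 139 to 134 and an NF-kappaB match from 33 to 24, and Il4 none of the 5 motifs. Matches of short motifs are letters in a window and show no binding.

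Detection set how far each member could be read. Both Il1b probes and Tgfb1 were well above background in all 16 channels (8 arrays, 2 dyes each). A probe with several copies counted as above background in a channel when at least 0.5 of its copies were. Tnf and Ifng were above background in 4 channels each, and all 4 were spleen channels. Il6 reached it in 6 channels, 4 in spleen, 1 in small intestine and 1 in liver, and Il10 in 6, 4 in spleen and 2 in small intestine. Il4 probe 1 was above background in 6 channels (4 in small intestine and 2 in spleen), Il4 probe 2 in 10 (4 in small intestine, 4 in spleen and 2 in liver), and Il2 in 1 small intestine channel. In spleen 8 of the 10 probes were above background in every channel, in small intestine 5 and in liver 3, where the shares of all probes were 55.6%, 55.6% and 39.8%. The filter on dim probes was passed by 9 of the 10 probes (2 or more arrays with the probe above background in either dye), and not by that of Il2, whose values come from a fit with no filter. Tnf, Ifng and Il10 needed their spleen arrays to pass (Il10 had 1 other array, in small intestine), so their difference between spleen and the other tissues was built into passing.

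Levels are log2 processed intensities after normalization between arrays, as the mean of a pooled sample's Cy3 and Cy5 channels, and are compared here only within a probe. The control and LO samples of a pair shared their arrays but entered the fits of level as separate samples. The p-values and call shares for level can therefore overstate the evidence. By fitted level most members were highest in spleen, and Il2 and Il4 were not. Tnf and Ifng were above background in no liver channel, and their lead over liver has no measured size. Il1b, read in every channel by both probes, was 5.36-fold (probe 1) and 4.7-fold (probe 2) higher in spleen than in small intestine and 9.16-fold and 9.2-fold higher than in liver. Tgfb1 was 8.16-fold higher in spleen than in small intestine and 9.47-fold higher than in liver. Each of the 3 slides held 1 tissue, and the liver slide was scanned in another session than the rest, so tissue and slide cannot be told apart in any of these differences.

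Tnf had log2 levels of 3.12 (control) and 3.26 (LO) in small intestine, 4.74 and 4.86 in spleen, 3.07 and 2.84 in liver pool 1, and 3.12 and 2.96 in liver pool 2. The spleen samples lay above all others, and small intestine and liver overlapped. Because no small intestine channel was above background, the difference is a bound: Tnf was at least 1.63-fold higher in spleen than in small intestine (fitted log2 difference 1.61 ± 0.14 SE, limma adjusted p = 0.000268), a call lost in control samples alone (1.62, adjusted p = 0.0985). A bound takes, on each array, the higher of the dim probe's own signal and the lowest signal of any probe above background. Against liver the fitted difference was 1.81 ± 0.12 (adjusted p = 5.19e-05), but the bound was under 1, so no fold is given. Small intestine and liver differed by 0.19 ± 0.12 (adjusted p = 0.217), with no channel above background in either tissue.

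Il1b, whose product is cut from an inactive precursor by caspase-1, had probe 1 levels of 9.70 (control) and 9.76 (LO) in small intestine, 12.22 and 12.09 in spleen, 9.22 and 8.98 in liver pool 1, and 8.91 and 8.72 in liver pool 2. Probe 2 gave 9.62 and 9.69, 11.93 and 11.86, 8.88 and 8.59, and 8.74 and 8.55 in the same samples. By both probes every spleen sample was above every small intestine sample, and these in turn were above every liver sample. The spleen to liver difference was 3.20 ± 0.15 by probe 1 (adjusted p = 9.67e-06) and 3.20 ± 0.12 by probe 2 (adjusted p = 3.88e-06), and spleen to small intestine 2.42 ± 0.17 (9.64e-05) and 2.23 ± 0.13 (5.26e-05). Small intestine exceeded liver by 0.77 ± 0.15 (1.71-fold, adjusted p = 0.00468) and by 0.97 ± 0.12 (1.95-fold, adjusted p = 0.000674). In the control samples alone the latter differences were 0.64 and 0.81, and neither passed (adjusted p = 0.318 and 0.209).

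Il6 had levels of 3.64 (control) and 3.43 (LO) in small intestine, 5.95 and 5.94 in spleen, 4.08 and 4.08 in liver pool 1, and 4.30 and 4.18 in liver pool 2. Spleen stood above both other tissues, by 2.41 ± 0.13 over small intestine (5.33-fold, adjusted p = 3.57e-05) and by 1.79 ± 0.11 over liver (3.46-fold, adjusted p = 3.51e-05). Only 1 of 4 small intestine channels and 1 of 8 liver channels measured it, so those folds rest largely on signal not above background. With each array's lowest signal above background as a floor, the Il6 levels were 5.95 in spleen, 5.09 in liver and 4.26 in small intestine. Liver was 1.54-fold above small intestine (log2 -0.62 ± 0.11 for small intestine minus liver, adjusted p = 0.00387). That call was lost with the 16 channels as separate values and a replicate block (adjusted p = 0.368), without replicate 1 (-0.58, adjusted p = 0.235) and without replicate 2 (-0.66, adjusted p = 0.226). It was also lost in control samples alone (-0.55, adjusted p = 0.373) and under normexp background correction (-0.14, adjusted p = 0.079).

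Ifng, the macrophage-activating cytokine of T and NK cells, had levels of 3.64 (control) and 3.80 (LO) in small intestine, 5.17 and 4.83 in spleen, 2.95 and 3.10 in liver pool 1, and 3.21 and 3.20 in liver pool 2. The 3 tissues did not overlap. It was at least 1.86-fold higher in spleen than in small intestine (fitted 1.28 ± 0.17, adjusted p = 0.00148), a call lost in control samples alone (1.52, adjusted p = 0.121). The fitted difference from liver was 1.88 ± 0.15 (adjusted p = 9.24e-05) with a bound under 1. The fitted difference of small intestine over liver, 0.61 ± 0.15 (adjusted p = 0.0133), lay wholly below background and was -0.07 under 75th percentile scaling, so it has no settled direction.

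Il2, the T cell growth factor, was at background, with levels of 3.37 and 3.77 in small intestine, 3.14 and 3.19 in spleen, and 2.69 to 3.16 in the 4 liver samples. The single channel above background was LO in small intestine on replicate 1 (processed intensity 18.7 against 11.8 for control), and on the swapped array the intensities were 10.4 and 9.5. Without the filter, small intestine minus liver was 0.59 ± 0.19 (adjusted p = 0.0442) with a bound under 1, and spleen minus small intestine -0.40 ± 0.22 (adjusted p = 0.218).

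Il4, the cytokine of type 2 responses and of IgE switching, was the only member gene with a probe called higher in small intestine than in spleen. Probe 2 had levels of 5.49 (control) and 5.67 (LO) in small intestine, 4.43 and 4.49 in spleen, 4.60 and 4.41 in liver pool 1, and 4.97 and 5.14 in liver pool 2. Small intestine lay above the rest, 2.17-fold above spleen (spleen minus small intestine -1.12 ± 0.26, adjusted p = 0.0141) and 1.74-fold above liver (0.80 ± 0.23, adjusted p = 0.0229). The former call was lost without replicate 2 (-1.44, adjusted p = 0.0535) and in control samples alone (-1.06, adjusted p = 0.251), the latter without replicate 2 (1.03, adjusted p = 0.0755), in control samples alone (0.71, adjusted p = 0.279) and under 75th percentile scaling (0.58, adjusted p = 0.145). Only 2 of 8 liver channels measured probe 2, so its fold over liver rests largely on signal not above background. With each array's lowest signal above background as a floor, its level was 5.58 in small intestine and 5.11 in liver. Probe 1 had 5.19 and 5.32 in small intestine, 4.76 and 4.61 in spleen, 4.39 and 3.69 in liver pool 1, and 3.34 and 3.44 in liver pool 2. It was also highest in small intestine, at least 1.18-fold above liver (fitted 1.54 ± 0.30, adjusted p = 0.00542, and 1.32 with adjusted p = 0.165 in control samples alone), but did not separate spleen from small intestine (-0.57 ± 0.35, adjusted p = 0.231, and 0.06 without replicate 1). The latter difference passed only under 75th percentile scaling (-0.72, limma adjusted p = 0.0359) and with the liver pools averaged (-0.57, limma adjusted p = 0.0132).

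The probes of Il4 disagreed on spleen and liver. Probe 1 placed spleen above liver (0.98 ± 0.30, adjusted p = 0.0284, bound under 1), while probe 2 gave -0.31 ± 0.23 (adjusted p = 0.26). The probe 1 call was lost without replicate 2 (0.61), without liver pool 2 (0.65), in control samples alone (0.90), under 75th percentile scaling (0.43) and under normexp (0.17), and that of probe 2 was gained without liver pool 1 (-0.59, adjusted p = 0.00129).

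Il10, which shuts off cytokine release by macrophages, had levels of 4.17 (control) and 4.07 (LO) in small intestine, 5.57 and 5.51 in spleen, 4.07 and 4.00 in liver pool 1, and 4.93 and 4.71 in liver pool 2. Spleen was above all others, and the liver pools lay apart, with pool 1 at the small intestine level and pool 2 above it. Spleen exceeded small intestine 2.69-fold (1.43 ± 0.34, adjusted p = 0.0155) and liver at least 1.44-fold (fitted 1.12 ± 0.30, adjusted p = 0.0167). It passed the filter only with its spleen arrays, so both calls were partly fixed by passing. The latter call was lost under 75th percentile scaling (0.82, adjusted p = 0.0974) and both in control samples alone (1.41, adjusted p = 0.223, and 1.07, adjusted p = 0.177). Small intestine minus liver was -0.31 ± 0.30 (adjusted p = 0.396), -0.70 (adjusted p = 0.00096) without liver pool 1 and 0.08 (adjusted p = 0.194) without liver pool 2. The bound for this difference was under 1, so no fold is given. No liver channel was above background, so the gap between the liver pools rests on signal not above background.

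Tgfb1, which is secreted in a latent complex, had levels of 6.97 (control) and 6.96 (LO) in small intestine, 9.96 and 10.03 in spleen, 6.83 and 6.74 in liver pool 1, and 6.71 and 6.72 in liver pool 2. The spleen samples stood well clear of the rest, by 3.03 ± 0.11 over small intestine (adjusted p = 8.55e-06) and 3.24 ± 0.09 over liver (adjusted p = 1.77e-06). Small intestine exceeded liver by 0.22 ± 0.09 (adjusted p = 0.091), a difference that passed without liver pool 1 (0.25, adjusted p = 0.0181) and with the liver pools averaged (adjusted p = 0.0227). It also passed with the 16 channels as separate values and a replicate block (adjusted p = 0.0406), where channels of the same pooled sample counted as replicates.

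**Figure D1:**
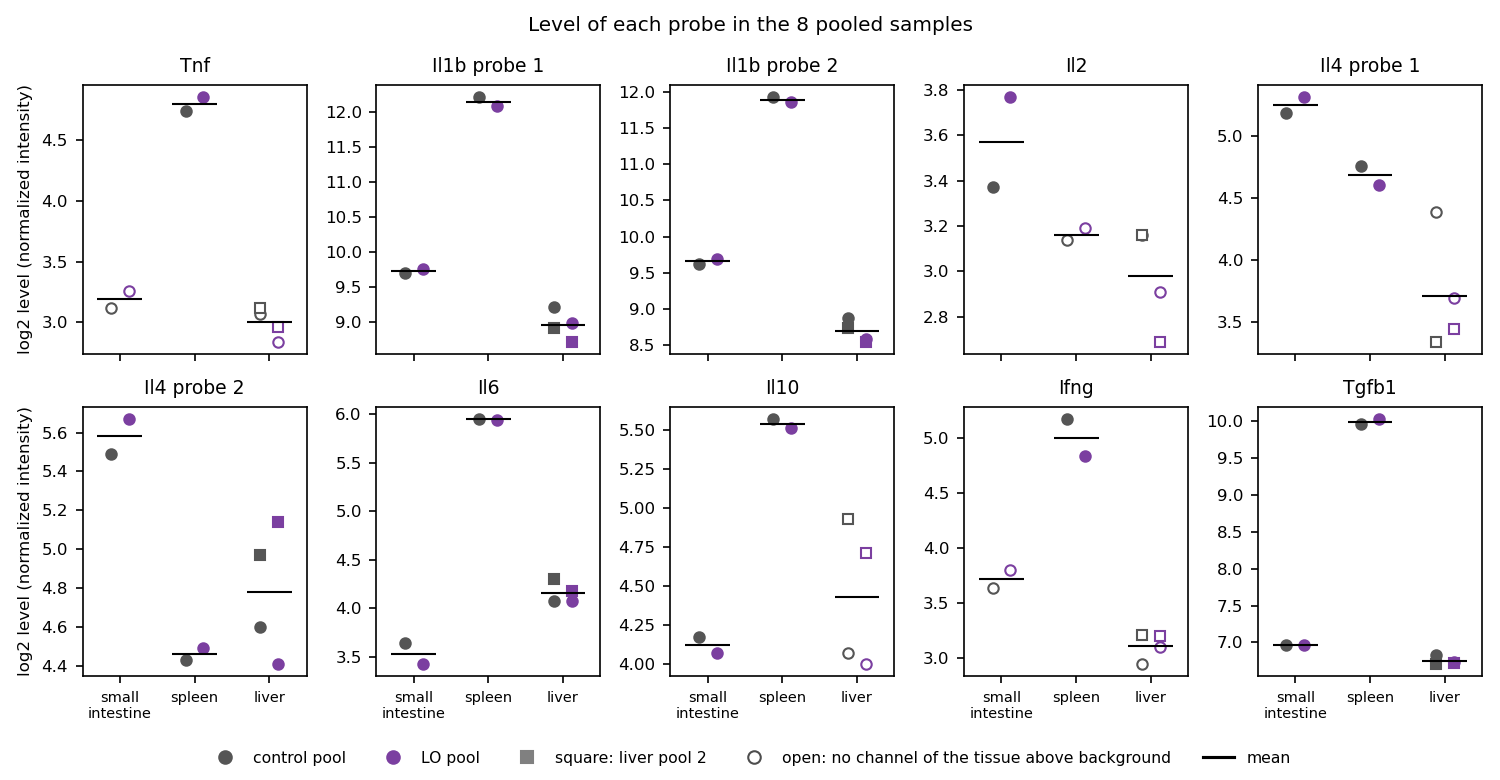
Log2 level of each probe (vertical axis, normalized intensity, scaled per panel) in the 8 pooled samples, with control in grey, LO in purple, squares for liver pool 2, a line at the tissue mean and open symbols where no channel of the tissue was above background. Il1b and Tgfb1 stand 2.23 to 3.24 higher in spleen than elsewhere, and both Il4 probes are highest in small intestine.

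Of the 9 probes that passed the filter, 7 were called higher in spleen than in small intestine, where 29.9% of all 30592 probes tested were, and 1 lower, where 22.5% were (52.4% in either direction). Against liver 8 were higher in spleen (background 38.3%) and 0 lower (background 31.9%, and 70.1% in either direction). Between small intestine and liver (64.9% called in either direction) 5 were higher in small intestine (background 33.5%) and 1 in liver (background 31.4%). The lowest spleen sample was above the highest sample of the other tissues for 7 of the 9, as it was for 32.6% of probes. The median log2 difference of the 9 was 1.61 for spleen minus small intestine (0.12 over all probes), 1.81 for spleen minus liver (0.10) and 0.61 for small intestine minus liver (0.00). Since Tnf, Ifng and Il10 entered through spleen, these counts are descriptions only.

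Markers of immune cells differed between the tissues in the same samples. The summed linear level of 6 T cell markers was 28642 to 29217 in spleen, 13992 to 14669 in small intestine and 1220 to 1708 in liver, where Cd4, Cd2 and Cd247 were above background in no channel, as Cd4 and Cd2 were in small intestine. The 4 macrophage markers summed to 22837 to 23398 in spleen, 1708 to 1750 in small intestine and 7463 to 10255 in liver. The 4 NK cell markers gave 4798 to 4939, 1685 to 1725 and 533 to 628 (Klrd1 and Ncr1 in no liver channel), and the B cell marker Cd79b 20665 to 20786, 169 to 184 and 31 to 43. The granulocyte markers S100a8 and S100a9 gave 7947 to 8565, 36 to 42 and 361 to 429, with S100a8 in no small intestine channel. The sum of the mast cell markers Mcpt1, Fcer1a and Kit ran the other way. It was 4106 to 4707 in small intestine, 104 to 111 in spleen and 83 to 101 in liver. Only 1 of these 3 markers was above background in every small intestine channel, and Fcer1a was in no spleen or liver channel. The sum does not give the direction of each marker. The part of these cell types in the members' levels was not tested, and in bulk tissue fewer cells of a type and less RNA per cell cannot be told apart.

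Among 8901 probes with an annotated gene, those whose level followed a member most closely over the 8 pooled samples reached Pearson r of 0.9787 to 0.9995. The 8 points are 3 tissues with 2 or 4 samples each, so r describes the order of tissues. For Tnf these were Pkia (r = 0.9955), P2ry12 (0.9954) and Cuedc2 (0.9953). For Il1b they were Klrb1a (0.9993), Prps2 and Blk (0.9990 each) by probe 1, and Nt5c3b (0.9993), P2ry6 (0.9990) and Rpl5 (0.9985) by probe 2. Il6 was followed by Septin9 (0.9975), Bin1 (0.9970) and Nup85 (0.9959), Il10 by C18h18orf54 (0.9984), Csf2rb (0.9979) and Havcr1 (0.9957), Ifng by Rpl36 (0.9973), Rpl19 (0.9944) and Cldn5 (0.9937), and Tgfb1 by Limd2 (0.9995), Hcar2 and Git2 (0.9994 each). Il4 had fewer close companions: Ezr (0.9810), Fhit (0.9801) and Kif5b (0.9798) by probe 1, and Slc28a1 (0.9859), Grp (0.9821) and Pgam1 (0.9787) by probe 2. An r above 0.95 was reached by 84 and 40 probes for the Il4 probes and by 79 for Il10, against 380 to 776 for the others.

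The wider pathway was described with 5 lists: other cytokines (17 tested of 33), receptors and decoys of the members (15 of 19), genes that process or activate the proteins (7 of 11), signal transduction (15 of 27) and target genes (14 of 20). The counts below are read against the background shares of all probes, repeated in brackets, and a share near these is no result about a list. Against small intestine, other cytokines were higher in spleen for 8 genes (background 29.9%) and lower for 1 (22.5%), with a median log2 difference of 0.45. Ltb, a lymphotoxin that shapes lymphoid tissue, was higher by 4.55 ± 0.15 (adjusted p = 7.06e-06), Csf1, the macrophage growth factor, by 3.48 ± 0.11 (adjusted p = 4.83e-06), and Lta at least 4.92-fold. Against liver 12 were higher in spleen (background 38.3%) and 4 lower (31.9%, median 1.14), led by Ltb (5.27 ± 0.13), Il18 (3.32 ± 0.15), which like Il1b is cut by caspase-1, and Lta (at least 2.6-fold). Lta was above background in spleen channels alone, so its higher level there than in either other tissue was built into passing the filter. Il3, among the genes lower in spleen than in liver (-2.20), was above background in liver channels alone, so its call was built in likewise. Between small intestine and liver 7 were higher (background 33.5%) and 7 lower (31.4%, median 0.05), with Il12a at least 1.11-fold, Faslg at least 3.92-fold and Il15 by 1.84 ± 0.24 (adjusted p = 0.001) higher in small intestine.

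Of the receptors, 8 were higher in spleen than in small intestine (background 29.9%) and 2 lower (22.5%, median 0.75), with Il6r, the ligand-binding Il6 receptor, at 3.32 ± 0.16, Il2rb at 3.05 ± 0.19 and Il10ra at 2.27 ± 0.24. Against liver 6 were higher in spleen (background 38.3%) and 7 lower (31.9%, median -0.33): Il1rap, the accessory chain of the Il1b receptor, was at -4.73 ± 0.12 in spleen minus liver (adjusted p = 9.72e-07), while the decoy Il1r2 was at least 2.83-fold and Il10ra at least 2.22-fold higher in spleen. Liver exceeded small intestine for 10 receptors (background 31.4%) and fell below it for 2 (33.5%, median -0.83), with Il1rap at -4.04 ± 0.12, Tgfbr2 at -3.56 ± 0.30 and Il1r2 at least 3.68-fold higher in small intestine. In the liver samples Il1b was lowest and its accessory receptor chain highest of the 3 tissues.

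Casp1, which cuts the Il1b precursor, was higher in small intestine than in spleen (spleen minus small intestine -1.62 ± 0.18, adjusted p = 0.000607) and than in liver (5.22 ± 0.15, adjusted p = 2.12e-06), and higher in spleen than in liver (3.61 ± 0.15). Its adaptor Pycard was 3.94 ± 0.11 above liver in spleen and 4.96 ± 0.11 above it in small intestine. Furin, a protease that cuts the Tgfb1 precursor, was lower in spleen than in small intestine by 1.5 ± 0.11, and Ltbp1, a binding protein of latent Tgfb1, higher by 1.72 ± 0.15. Ltbp2 was at least 4.07-fold higher in spleen and at least 3.17-fold higher in small intestine than in liver. Of the 7 tested, 2 were higher (background 29.9%) and 3 lower (22.5%) in spleen than in small intestine, with a median of -0.20. In spleen minus liver 5 were higher (38.3%) and 1 lower (31.9%, median 2.60), and in small intestine minus liver 5 were higher (33.5%) and 1 lower (31.4%, median 0.88).

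Of the 15 signal transducers tested, 9 were higher in spleen than in small intestine (background 29.9%) and 0 lower (22.5%, median 0.61), led by Stat5a (1.93 ± 0.11), Jak3 (1.90 ± 0.29) and Nfkb2 (1.77 ± 0.26). Against liver 10 were higher in spleen (background 38.3%) and 3 lower (31.9%, median 0.83), with Smad2 at 2.25 ± 0.25, Stat6, which carries the Il4 signal, at 2.0 ± 0.11 and Nfkb2 at 1.97 ± 0.22. Small intestine and liver split 6 to 6 (background 33.5% and 31.4%, median 0.20), with Stat5a at -2.08 ± 0.09, Stat3 at 1.88 ± 0.25 and Stat6 at 1.64 ± 0.11. Of the target genes 4 were higher (background 29.9%) and 4 lower (22.5%) in spleen than in small intestine, with a median of 0.11. In spleen minus liver 7 were higher (38.3%) and 3 lower (31.9%, median 0.79), and in small intestine minus liver 8 were higher (33.5%) and 4 lower (31.4%, median 1.24). The adhesion molecule Vcam1 was higher in spleen by 4.95 ± 0.18 over small intestine and by 6.35 ± 0.15 over liver, and Cxcl10, an interferon-induced chemokine, by 4.48 ± 0.31 over small intestine. Icam1 was lower in small intestine than in either other tissue (spleen minus small intestine 3.31 ± 0.14, small intestine minus liver -3.29 ± 0.12). Ccl2 was 5.05 ± 0.41 higher in spleen and 5.78 ± 0.41 higher in small intestine than in liver, where 1 of 8 channels measured it. Fn1, a liver-made plasma protein, ran the other way (spleen minus liver -4.99 ± 0.21, small intestine minus liver -5.62 ± 0.21).

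**Figure D2:**
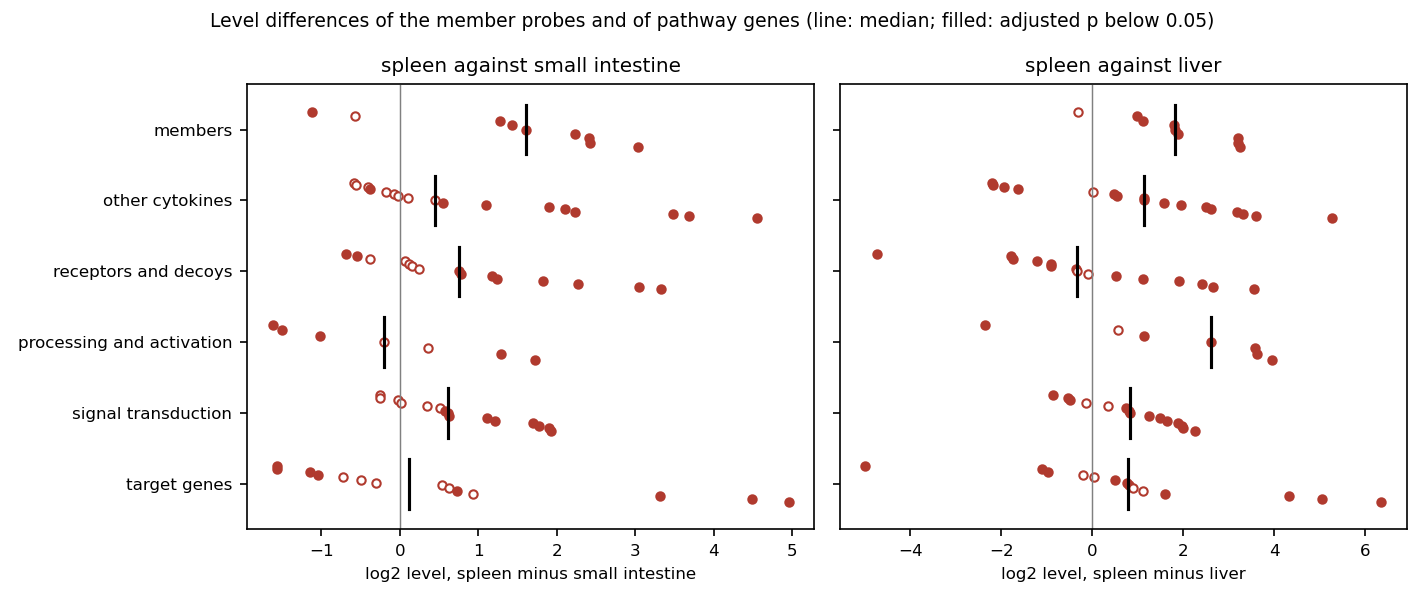
Log2 level of spleen minus small intestine (left) and of spleen minus liver (right) for the 9 member probes tested and the genes of the 5 lists, 1 point each, with a line at the median and filled points where the limma adjusted p was below 0.05. Members and other cytokines lie mostly above 0 against liver, with medians of 1.81 and 1.14, and receptors scatter on both sides of 0 with a median of -0.33.

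LO was compared with its diluent in each tissue through the mean of the 2 dye-swapped arrays. None of the 9 probes tested was called in any tissue by limma, and the same was true of every probe on the array (0% of 30592 called in each of small intestine, spleen, liver and their average, and in each of the 3 differences between tissues). Small intestine and spleen had 1 pooled pair each and were assumed to vary like the liver pools, which gave the fit a single residual degree of freedom. At an unadjusted p below 0.05 stood 3.94% of probes in small intestine, 4.26% in spleen, 5.81% in liver and 5.39% for the average. The median log2 LO over control of the 9 members was 0.07 in small intestine, -0.06 in spleen, -0.15 in liver and -0.08 on average, against 0.00 over all probes in each.

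Il1b gave the steadiest ratios. In liver its control and LO intensities by probe 1 were 434 and 397 (liver pool 1, replicate 1), 551 and 431 (pool 1, replicate 2), 353 and 332 (pool 2, replicate 1) and 355 and 293 (pool 2, replicate 2). LO was the lower channel on all 4 arrays in both dye orientations, with log2 ratios of -0.13, -0.36, -0.09 and -0.28, and probe 2 gave -0.28, -0.30, -0.14 and -0.24. The fit gave -0.21 ± 0.05 by probe 1 (95% interval -0.42 to -0.01, limma adjusted p = 0.83) and -0.24 ± 0.06 by probe 2 (-0.47 to -0.01, adjusted p = 0.83), so neither passed, though both lay among the 5.81% of probes below 0.05 before adjustment in liver. The 4 macrophage markers summed to 8416 (control) and 7463 (LO) in liver pool 1 and to 10255 and 9796 in liver pool 2, with a median log2 ratio of -0.13 in liver, and their part in the Il1b values was not tested.

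In spleen Il1b probe 1 had control and LO intensities of 5357 and 4987 on replicate 1 and of 4601 and 4118 on replicate 2. LO was lower on both (-0.10 and -0.16, fit -0.13 ± 0.07, 95% interval -0.43 to 0.16), and probe 2 gave -0.10 and -0.02 (fit -0.06 ± 0.08). In small intestine probe 1 changed sign with the dye (0.18 and -0.07, fit 0.06 ± 0.07) and probe 2 did not (0.04 and 0.10, fit 0.07 ± 0.08). The LO value of small intestine minus liver was 0.27 ± 0.09 by probe 1 and 0.31 ± 0.10 by probe 2, both with adjusted p = 0.993.

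Tnf was measured above background only in spleen, where control and LO intensities were 34 and 43.9 on replicate 1 and 33.4 and 31.1 on replicate 2. The ratio was 0.36 with LO in Cy5 and -0.12 with LO in Cy3, so its sign followed the dye, and the fit gave 0.12 ± 0.07 (95% interval -0.15 to 0.40). In small intestine the intensities were 10.1 and 9.47, then 7.94 and 11.2, with ratios of -0.10 and 0.42 (fit 0.16 ± 0.07, -0.12 to 0.43), and the 4 liver arrays gave 0.17, -0.56, 0.09 and -0.44 (fit -0.19 ± 0.05, -0.38 to 0.01, limma adjusted p = 0.83). The LO value of small intestine minus liver for Tnf was 0.34 ± 0.09 (95% interval 0.01 to 0.68, adjusted p = 0.993), among the 4.5% of probes below 0.05 before adjustment, in tissues where no channel was above background.

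Il6 showed the dye most plainly. In small intestine control and LO intensities were 25.1 and 8.62 with LO in Cy5, and 8.27 and 18.9 with LO in Cy3, giving log2 ratios of -1.86 and 1.45. Liver pool 1 gave -1.99 and 2.02, and liver pool 2 gave -2.30 and 2.03. In spleen, where Il6 was above background in every channel, the intensities were 105 and 82.3, then 64.8 and 81.6, with ratios of -0.36 and 0.34. The Cy3 channel was the brighter on all 8 arrays whichever sample it held, by a pool mean (log2 Cy5 over Cy3) of -2.01 and -2.17 in the liver pools, -1.65 in small intestine and -0.35 in spleen.

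After averaging, the LO value of Il6 was -0.21 ± 0.10 in small intestine (95% interval -0.60 to 0.18), -0.01 ± 0.10 in spleen (-0.40 to 0.38) and -0.06 ± 0.07 in liver (-0.33 to 0.22). Its dye term over the 4 pools, a comparison added after the values were seen, was -1.54 ± 0.34 (limma adjusted p = 0.0821), lower than in all but 1.2% of probes. Ifng had the next strongest dye term of the members, -0.52 ± 0.09 (adjusted p = 0.0612), while those of Il1b probe 2 and Tgfb1 were 0.00 ± 0.04 and 0.03 ± 0.09. A dye term was called for 2.6% of probes and for 0 of the members.

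**Figure D3:**
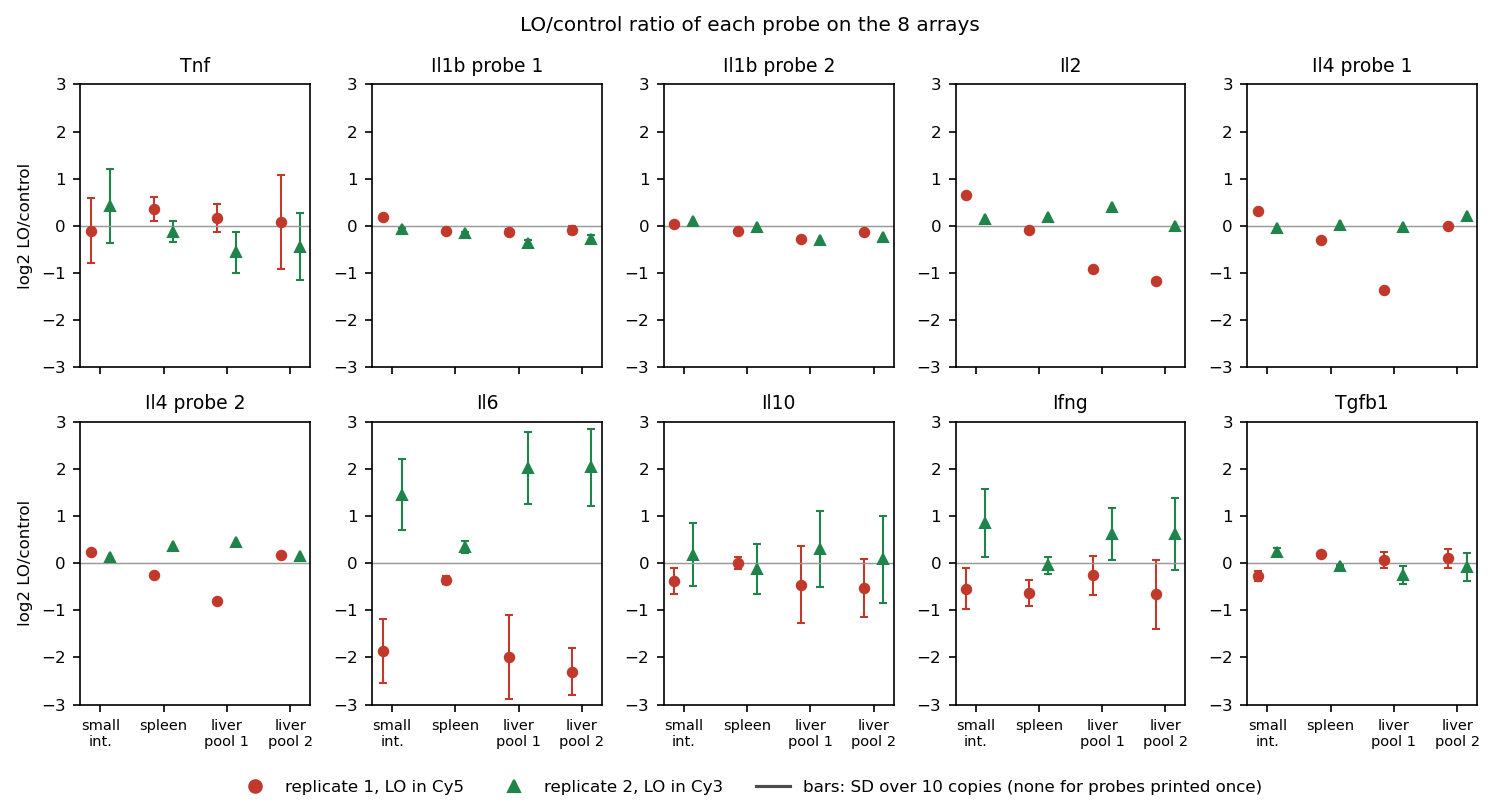
Log2 LO over control (vertical axis) of each probe on the 8 arrays, with circles for replicate 1 (LO in Cy5), triangles for replicate 2 (LO in Cy3) and bars for the SD over 10 copies. The Il6 points of the 2 dye orientations lie on opposite sides of 0 in every pool, from -2.30 to 2.03, and the 4 liver points of each Il1b probe all lie below 0.

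Ifng had control and LO intensities in spleen of 54.7 and 35.6 on replicate 1 and of 37.9 and 36.7 on replicate 2. The drop was thus nearly all on 1 array (-0.63 against -0.05), and the fit gave -0.34 ± 0.12 (95% interval -0.79 to 0.12, limma adjusted p = 1). In small intestine the ratios were -0.54 and 0.85 (fit 0.16 ± 0.12), and in liver -0.26, 0.61, -0.66 and 0.62 (fit 0.07 ± 0.08), with signs that followed the dye. Beside the spleen values, the 5 hepatocyte markers had a median log2 LO over control of 0.49 in spleen and the 3 erythroid markers 0.29, while T cell markers were at -0.02 and NK cell markers at -0.05, and the part of these in Ifng was not tested.

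Tgfb1 had control and LO intensities of 1346 and 1543, then 1215 and 1169, in spleen, and of 178 and 148, then 125 and 148, in small intestine. Both pairs changed sign with the dye (0.20 and -0.06 in spleen, -0.27 and 0.24 in small intestine). The fits were 0.07 ± 0.09 in spleen (95% interval -0.27 to 0.41), -0.01 ± 0.09 in small intestine (-0.35 to 0.33) and -0.04 ± 0.06 in liver (-0.28 to 0.20), whose arrays gave 0.06, -0.26, 0.10 and -0.08.

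Il10 had control and LO intensities of 68.9 and 68.8, then 56.6 and 55.2, in spleen, with ratios of 0.00 and -0.12 (fit -0.06 ± 0.10, 95% interval -0.45 to 0.32). In small intestine they were 27.2 and 21.3, then 15.4 and 19.7 (-0.38 and 0.18, fit -0.10 ± 0.10, -0.49 to 0.28), and liver gave -0.46, 0.30, -0.53 and 0.08 (fit -0.15 ± 0.07, -0.42 to 0.12). In small intestine and liver the sign followed the dye.

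Il4 probe 2 gave LO ratios of 0.23 and 0.12 in small intestine (intensities 54.7 and 63.9, then 49.2 and 53.5), -0.25 and 0.36 in spleen, and -0.81, 0.44, 0.18 and 0.16 in liver. Its fits were 0.17 ± 0.18, 0.06 ± 0.18 and -0.01 ± 0.13, and those of probe 1 were 0.13 ± 0.39, -0.15 ± 0.39 and -0.30 ± 0.28. The intervals of probe 1 were the widest of the members tested, from -1.41 to 1.68 in small intestine, so a change of over 2-fold in either direction lay within them. Il2, read without the filter, had fits of 0.40 ± 0.19 in small intestine, 0.04 ± 0.19 in spleen and -0.42 ± 0.13 in liver, with adjusted p of 0.885, 1 and 0.747.

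**Figure D4:**
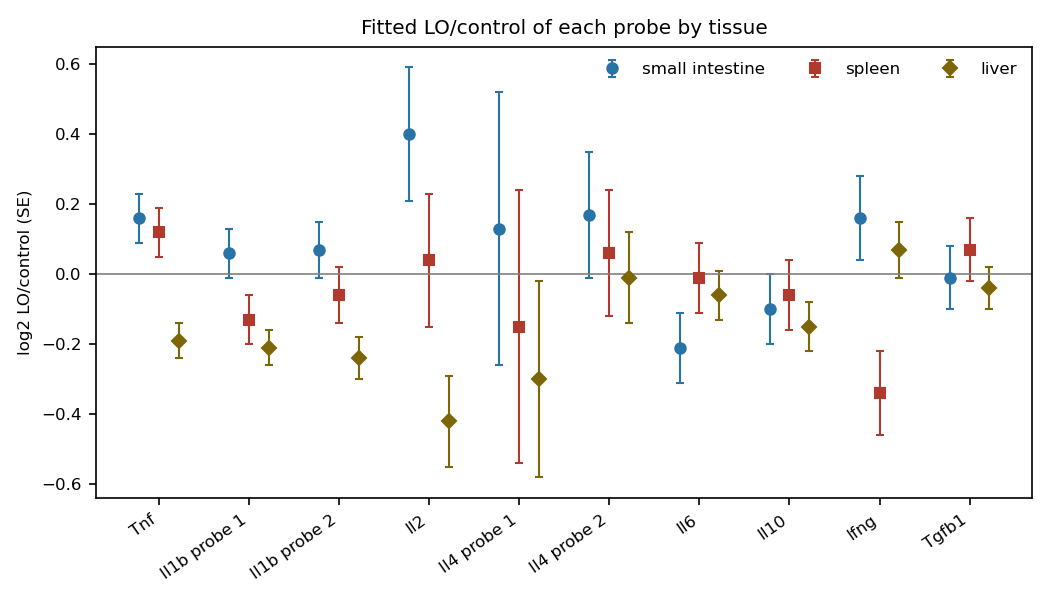
Fitted log2 LO over control (vertical axis) with its SE as bars for each probe in small intestine, spleen and liver, with Il2 from the fit without the filter. The Il1b probes lie at -0.21 and -0.24 in liver with SEs of 0.05 and 0.06, the bars of Il4 probe 1 are the longest, and no probe passed the adjusted threshold.

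The tests of the difference in LO value between tissues called 0 of the 9 probes, as of all probes (0%). At an unadjusted p below 0.05 stood 3.63% of probes for small intestine minus spleen and 4.75% for spleen minus liver. None of the members was among them, and nearest were Ifng for small intestine minus spleen (0.50 ± 0.16) and Tnf for spleen minus liver (0.31 ± 0.09). In the arrays of a pair, the turned ratios of 7 of the 10 probes had opposite signs in small intestine (70.7% of all probes), 6 in spleen (65.3%), and 7 and 5 in the liver pools (70.2% and 66.9%).

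The 10 printed copies of 6 probes measured how closely a ratio could be read within an array. Over its 10 copies the log2 ratio of Il1b probe 1 had an SD of 0.01 to 0.09, and that of Tgfb1 0.03 to 0.29. The copies of the dim members spread far more, with SDs of 0.22 to 1.0 for Tnf, 0.09 to 0.90 for Il6, 0.12 to 0.93 for Il10 and 0.19 to 0.76 for Ifng, against a median of 0.10 over all 263 probes printed 10 times. In spleen, where all 6 were above background, the median SD of each was the lowest of the 3 tissues, for example 0.23 for Tnf against 0.73 in small intestine. On replicate 1 in small intestine single copies of Tnf ran from -1.18 to 0.85 around their mean of -0.10, and on replicate 2 from -0.70 to 1.73 around 0.42. Copies share 1 hybridisation and are no replicates of a condition.

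The ratio cut-offs and p threshold named in the methods were required here together of a feature on every array of a tissue. In liver these were the 4 arrays of both pools. Up meant a Cy5 over Cy3 ratio of 1.5 or more on replicate 1 and of 0.75 or less on replicate 2. Down meant 0.75 or less on replicate 1 and 1.5 or more on replicate 2. The cut-offs on LO over control thus differed between the dye orientations. Each array also had to give a Feature Extraction p below 0.01. The gene counts the paper reports lie close to those of the ratio cut-offs without the p threshold. Those cut-offs picked 156 features up and 153 down in small intestine, and 173 and 66 in spleen. For liver the close counts were those of pool 2 alone, 221 up and 322 down. The full rule used here is thus stricter than what the paper's counts match. No copy of any member met the full rule in small intestine, spleen or liver. The full rule picked 0.0208%, 0.0161% and 0.00923% of 43345 features there (as down 0.00923%, 0.00923% and 0.00461%). The ratio cut-offs alone picked 0 copies of members in spleen and in liver with both pools required (background 0.551% and 0.0461%, as down 0.152% and 0.0254%). In small intestine (background 0.713%, as down 0.353%) 1 of 10 Tnf copies and 2 of 10 Il10 copies counted as down there. The Tnf copy had log2 ratios of -0.86 and -0.63 and was above background in neither channel of either array. The mean of the 10 Tnf copies was -0.10 and 0.42 on these arrays, and 7 of the 10 copies were above 0 on replicate 2. The Il10 copies had -0.90 and -0.71, and -0.42 and -1.34, and were above background on replicate 1 alone. The software's p was above 0.01 for each of these copies on both arrays. In liver pool 2 alone 1 Il10 copy counted as down by ratio (-0.64 and -1.31, background 0.743%), and it was not above background.

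**Figure D5:**
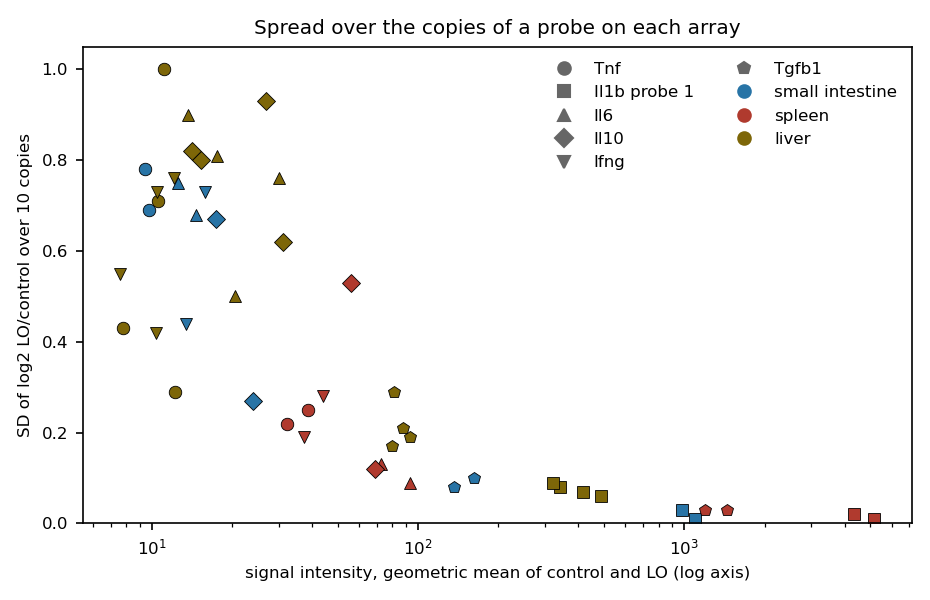
SD of log2 LO over control across the 10 copies of a probe on 1 array (vertical axis) against its mean intensity on that array (horizontal log axis), with symbols for the 6 probes and colours for tissues. Il1b probe 1, the brightest, has SDs of 0.01 to 0.09, and Tnf, Il6, Il10 and Ifng reach 0.76 to 1.0 at low intensity.

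In the wider pathway 0 genes of any list were called for LO in any tissue, on average or between tissues. For other cytokines the medians were 0.06 in small intestine, -0.04 in spleen and -0.01 in liver. The smallest p belonged to Lta in small intestine (0.39 ± 0.07, adjusted p = 1), which was above background in spleen alone, to Il3 in spleen (0.45 ± 0.15), where it was above background in no channel, and to Il33 in liver (-0.28 ± 0.05, adjusted p = 0.83). On average over tissues it was Lta (0.15 ± 0.04, adjusted p = 0.924), and between tissues Lta again (0.33 ± 0.10 over spleen and 0.39 ± 0.08 over liver) and Il3 (0.59 ± 0.18 for spleen minus liver).

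Receptors had medians of -0.03, -0.06 and -0.04 in small intestine, spleen and liver. Il2ra, the high-affinity chain of the Il2 receptor, which was above background in 3 of 4 channels in small intestine, 3 of 4 in spleen and 5 of 8 in liver, had the smallest p in small intestine (-0.45 ± 0.14) and on average (-0.29 ± 0.07, adjusted p = 0.924), Tgfbr3 in spleen (-0.42 ± 0.17) and Ifngr1 in liver (-0.21 ± 0.05, adjusted p = 0.83). Between tissues the smallest p was that of Il1rap for small intestine against spleen (0.23 ± 0.10) and against liver (0.21 ± 0.09), and of Tgfbr3 for spleen minus liver (-0.46 ± 0.21).

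Among genes of processing and activation (medians 0.03, 0.03 and -0.15), Thbs1, an activator of latent Tgfb1, had a log2 LO over control of 0.80 ± 0.07 in spleen (adjusted p = 1) and -0.29 ± 0.07 in small intestine (adjusted p = 1). It was above background in 1 of 4 channels in spleen, 1 of 4 in small intestine and 0 of 8 in liver. Its difference was -1.09 ± 0.10 for small intestine minus spleen (adjusted p = 1) and 0.95 ± 0.09 for spleen minus liver (adjusted p = 1). Ltbp2 had the smallest p in liver (-0.64 ± 0.09, adjusted p = 0.83), where it was above background in no channel, on average (-0.25 ± 0.07) and for small intestine minus liver (0.50 ± 0.16).

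Signal transducers had medians of -0.05, 0.02 and -0.01, with the smallest p for Rela in small intestine (-0.10 ± 0.08), Jak3 in spleen (0.12 ± 0.08), Ikbkg in liver (-0.33 ± 0.17) and Myd88 on average (-0.08 ± 0.06). Between tissues they were Rela (-0.13 ± 0.11), Smad4 (small intestine minus liver, -0.19 ± 0.14) and Stat6 (spleen minus liver, -0.13 ± 0.09). Among target genes (medians -0.02, -0.03 and 0.00) Cxcl10 had opposite signs in small intestine (-0.23 ± 0.07) and liver (0.28 ± 0.05, adjusted p = 0.83), with a difference of -0.50 ± 0.09 (adjusted p = 0.993). Lcn2, an acute-phase protein above background in 2 of 4 spleen channels and 4 of 8 liver channels, was at -0.55 ± 0.09 in spleen (adjusted p = 1), -0.20 ± 0.05 on average and -0.60 ± 0.11 for spleen minus liver, and Ccl2 at 0.38 ± 0.10 for small intestine minus spleen.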

How the data were processed

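RNA pooled from 6 rats per group was labelled with Cy3 or Cy5 by linear amplification and hybridised to rat whole-genome 60-mer arrays, 2 dye-swapped arrays per pooled pair. The authors extracted features with Agilent Feature Extraction 11.0.1.1 (per the submitters' processing notes), which subtracts background, normalizes the dyes by LOWESS and writes, per feature, the processed intensity of each channel, a log10 ratio of Cy5 over Cy3, and a p-value of that ratio from an error model. The deposited scanner files also hold median intensity and background per channel and flags for features above background. The values deposited with the samples hold log10 Cy5 over Cy3, equal to the scanner log10 ratio except where that ratio was exactly 0. Their medians per array lay between -0.01967 and 0.01483, and their direction follows the dyes the methods give.

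Log ratios were turned to LO over control on the log2 scale, copies of a probe and the 2 arrays of a pair were averaged, and limma (3.58.1 in R 4.3.3) fitted the 4 pool values with a coefficient per tissue (1 residual and 1.2 prior degrees of freedom). Levels came from the log2 processed intensity of each channel after Aquantile normalization, averaged to 8 pooled samples, with terms for tissue and LO (4 residual and 1.78 prior degrees of freedom). The control and LO samples of a pair entered as separate samples, and no term for the shared arrays was fitted. Controls and 34 non-uniform features were left out, 30592 probes passed the filter (2 or more arrays with the probe above background in either dye), and p-values were adjusted by Benjamini-Hochberg over these with a threshold of 0.05. The number of arrays limits the precision, and p-values measure only the spread between pooled samples, not between animals. Same-numbered arrays share a dye orientation, and their deviations from the pool mean correlated at 0.554 to 0.805 across probes, so the number pairs arrays by dye.

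The members and lists were chosen with earlier results of these data known. All members were named in each comparison, and of each list up to 3 called genes with the largest change, or the gene with the smallest p where none was called, each gene by its probe with most channels above background. Companions of a member were the 3 named probes with the highest Pearson r, for members above background in at least 4 channels. Of 41012 probes 10768 matched 1 gene symbol in RefSeq by accession and 30244 were left unnamed. Data were handled with the data.table package (1.17.8), Python 3.11.15, numpy 2.4.6 and pandas 2.3.3, and plotted with matplotlib 3.10.9. The fits were tested on simulated data. Alternatives covered arrays as separate values with and without a replicate block and, for levels, channels as separate values with that block. They also covered normexp background correction (offset 50) with loess, other filters, scaling, dye-swap thresholds, the values deposited with the samples, and leaving out each replicate or liver pool.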

Additional observations from a re-analysis of the deposited data

Results flagged for a closer look

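In 20 groups of 4 liver values (10 probes, array ratios and sample levels), 1 value stood apart from the other 3 by Dixon's criterion. It was the log2 LO over control of Il4 probe 1 on liver pool 1, replicate 1, at -1.37, where the other liver arrays gave -0.03, 0.00 and 0.22, a gap of 0.840 of the whole range. Neither channel of that feature was above background (processed intensities 18.6 for control and 7.2 for LO), and the other Il4 probe gave -0.81 on the same array. Chance marks about 1 in 20 such groups.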

How the results depend on the processing

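No alternative gave a member an LO call: over 588 values the adjusted p ran from 0.14 to 1. Over all probes, where 0 were called for LO, treating the 8 arrays as separate values called 1 probe in small intestine, 1 on average and 1 for small intestine minus liver, both with the replicate block and without it, and the block changed no other LO count. Under normexp and loess 32 probes were called in small intestine, 108 in spleen, 150 in liver, 37 on average, 23 for small intestine minus spleen, 27 for small intestine minus liver and 67 for spleen minus liver, and the cause was not tested. The 16037, 21460 and 19857 probes called for level (spleen minus small intestine, spleen minus liver, small intestine minus liver) became 3662, 10025 and 6783 with control samples only, a fit on 4 samples, and 24271 for spleen minus small intestine with the liver pools averaged. Of 252 level values of members under alternatives, 214 kept their direction and call, 25 lost the call, 9 gained it and 2 turned: small intestine minus liver was -0.67 for Tnf (adjusted p = 0.0159) and -0.07 for Ifng (adjusted p = 0.771) under 75th percentile scaling, against 0.19 and 0.61. That scaling moved the median of all probes from 0.00 to -0.20 for small intestine minus liver and from 0.10 to -0.19 for spleen minus liver, where 45.9% of calls were then higher in spleen against 54.6%. Another 2 uncalled values moved across 0. The calls of Il1b and Tgfb1 for spleen against both tissues and of Il6 for spleen against both stood under every alternative run. Those of Tnf and Ifng for spleen against liver stood too. Their difference was built into passing the filter and their bounds against liver were under 1, so standing is no support for them.

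The dye-swap rule picked 9 features in small intestine, 7 in spleen and 4 in liver. With no p threshold it picked 309, 239 and 20, and at p below 0.001 1 in spleen and 2 in liver. With 1 array orientation left out the counts ran from 446 to 1027 in small intestine, 297 to 722 in spleen and 507 to 636 in liver. Without replicate 2, 7 of 10 Il6 copies in small intestine counted as down (470 of all 43345 features), as did 4 of 10 Ifng copies in spleen (324 of all). In liver 3 of 10 Il6 copies counted as down without replicate 2 (362 of all) and 4 as up without replicate 1 (316 of all). Without replicate 1, 1 of 10 Il10 copies in spleen counted as down (147 of all). Liver pool 1 alone gave 9 and pool 2 alone 17. For Il2, Tnf and Ifng outside spleen, and Il10 in liver, signal at or near background limits every value.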
